A study of Mus musculus with 4 samples.

Results

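The genes for respiratory complex III, complex IV and the ATP synthase, with cytochrome c and the inorganic pyrophosphatases, were read in sorted hematopoietic stem cells (HSCs) with and without *Id2*. The set holds every gene of the deposited table whose symbol begins with Uqcr, Atp5 or Cox and a digit, together with *Cyc1*, *Cycs*, *Sco1*, *Sco2*, *Surf1*, *Ppa1* and *Ppa2*, and leaves out 3 pseudogenes whose symbols contain -ps. This gave 55 of 19354 genes. They fall into 10 genes for complex III and cytochrome c, 14 subunits of complex IV, 12 genes for the assembly of complex IV, 17 genes named for the ATP synthase and 2 pyrophosphatases.

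The study compared HSCs of Mx1-Cre *Id2*+/+ control mice with HSCs of Mx1-Cre *Id2* fl/fl mice, called *Id2*Δ/Δ after deletion. Both genotypes carried the Cre transgene and both received pIpC, a double-stranded RNA analog whose interferon response turns on Mx1-Cre, so that deletion was not limited to HSCs. Cells were sorted 2 weeks after pIpC from bone marrow of mice aged 8 to 16 weeks as Lin- Sca1+ c-Kit+ (LSK) cells that were FLT3-, CD48- and CD150+, and pooled over 14 *Id2*+/+ and 15 *Id2* fl/fl mice in 2 experiments. There were 4 RNA-Seq libraries, 2 of each genotype, named here replicate 1 and replicate 2; the labels do not tie a library to an experiment or to particular mice, so the p-values measure only the spread between these libraries, which may be technical.

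Levels are log2 CPM (read counts scaled to a common library total) as the authors deposited them, normalized so that the libraries share a median of 3.92. Depth recovered from the low values was 14200000 and 15700000 reads in the *Id2*+/+ libraries and 17800000 and 18800000 reads in the *Id2*Δ/Δ libraries. The targeted gene *Id2* had 93 and 98 reads in *Id2*+/+ replicates 1 and 2 and 0 reads in both *Id2*Δ/Δ libraries, at least 39.0-fold lower with 3 reads a library taken as the limit that a count of 0 allows. All 9 HSC marker genes were present at 3.09 to 11.08 log2 CPM. Their summed level was 4465 and 4382 CPM in *Id2*+/+ against 3042 and 3600 CPM in *Id2*Δ/Δ replicates 1 and 2, and *Kit*, *Hlf* and *Fgd5* were among those lower at an unadjusted p-value under 0.05 from limma. The 9 neutrophil markers summed to 149 and 53.2 CPM in *Id2*+/+ and 111 and 25.9 CPM in *Id2*Δ/Δ replicates 1 and 2, higher in the first replicate of each genotype. Of these, *Mpo* and *Elane* had log2 fold changes of 0.65 and 1.25, the 6 others tested lay between -2.00 and -0.74, and *Retnlg*, below the filter, was at the lowest listed value of both *Id2*Δ/Δ libraries. The 5 megakaryocyte markers summed to 339 and 323 CPM in *Id2*+/+ and 398 and 410 CPM in *Id2*Δ/Δ. Erythroid markers, 7 of 8 with values, summed to 29.1 to 42.5 CPM in *Id2*+/+ and 32.2 to 41.3 CPM in *Id2*Δ/Δ, with *Hba-a1* and *Hba-a2* at the lowest listed value of *Id2*Δ/Δ replicate 1. B cell markers, 2 of 4 with values, summed to 33.6 to 37.9 and 34.5 to 51.0 CPM, nearly all of it *Cd79b*, and 0 of 3 T cell markers had a value. The part of these other cells in the values below was not tested, and in such bulk libraries fewer cells of a type cannot be told apart from less RNA per cell.

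Complex III passes electrons from ubiquinol to cytochrome c, and complex IV, cytochrome c oxidase, passes them on to oxygen. Both pump protons out of the mitochondrial matrix, and the ATP synthase lets them flow back through its membrane part, Fo, while its catalytic head, F1, makes ATP. Quiescent HSCs are known to rely little on oxidative phosphorylation, and the transcription factors NRF1 and GABP (an ETS factor also called NRF2) are textbook activators of nuclear genes for these complexes.

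Promoter stretches of 5 of the genes described below show the letters these 2 factors are known to bind. The NRF1 core searched was GCGCATGC and the ETS core CTTCCGG, on both strands, in RefSeq promoter windows on GRCm38.p6 that run from 250 bases before to 50 bases after a gene's start. A window was given for 42 of the 55 genes. The stretches lie before the start of the gene, are written along the gene's own strand, and carry the cores in capitals. *Cox6a1* and *Cox20* were among the genes with the smallest p-values of their groups, *Cox10* is named by the study, *Uqcrh* was among the most abundant complex III transcripts, and *Uqcr11* had the lowest fold change of complex III.
Cox6a1 (chr5:115349081-115349150, minus strand): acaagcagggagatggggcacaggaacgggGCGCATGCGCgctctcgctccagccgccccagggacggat
Cox20 (chr1:178319020-178319086, plus strand): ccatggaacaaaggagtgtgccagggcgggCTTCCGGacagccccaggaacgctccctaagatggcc
Cox10 (chr11:64079473-64079529, minus strand): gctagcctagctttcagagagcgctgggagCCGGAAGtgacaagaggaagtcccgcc
Uqcrh (chr4:116075072-116075110, minus strand): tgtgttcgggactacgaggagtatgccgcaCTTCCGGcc
Uqcr11 (chr10:80406851-80406917, minus strand): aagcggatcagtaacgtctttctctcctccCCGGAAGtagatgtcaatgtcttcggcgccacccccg
The run in *Cox6a1* reads the same on both strands and holds 2 overlapping NRF1 cores, the first 162 bases before the start. *Cox6a1* also has an ETS core 16 bases before the start, and *Uqcr11* an NRF1 core 4 bases before it, neither of them within the stretches shown.

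Shares are per gene, and a gene with several windows counted once if any of them held the core. The ETS core was found for 17 of the 42 genes with a window (40.5%). It was found for 20.2% of tested protein-coding genes with a window and 9.93% of all 27025 genes with a window. Genes for the assembly of complex IV had it most often, 7 of 10 with a window (*Cox10*, *Cox14*, *Cox15*, *Cox16*, *Cox20*, *Sco1* and *Surf1*). The NRF1 core was found for 7 genes (16.7%, against 6.13% of tested protein-coding genes and 3.05% of all), namely *Cycs*, *Uqcr11*, *Uqcrc1*, *Cox6a1*, *Atp5g2*, *Atp5k* and *Atp5l*, and for 0 of the 10 assembly genes with a window. *Atp5k*, *Atp5l*, *Cox6a1* and *Uqcr11* held both cores. The median log2 fold change between genotypes was 0.12 over the 20 genes with either core and 0.18 over the 21 tested genes with a window and neither. A match is a description of the letters, and no match says only that these letters are not in this window.

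Levels were compared between genes per kilobase of the longest transcript, on the log2 scale and as the mean of the 4 libraries. The longest annotated transcript need not be the one expressed, and where it is not, the level per kilobase comes out too low. The median per kilobase was 6.74 for complex III and cytochrome c, 6.62 for subunits of complex IV, 6.64 for the ATP synthase genes, 4.82 for the pyrophosphatases and 4.16 for complex IV assembly, where all 15895 tested genes had a median of 3.20. The highest was *Atp5b*, the catalytic beta subunit, at 8.61. *Cox4i1*, the common isoform of subunit 4, followed at 8.26, *Cox6a1* at 8.23 and *Atp5a1*, the alpha subunit, at 8.03. The median assembly factor thus lay below the median subunit it helps to build, while *Cox14* at 6.64 was level with that subunit median, and the tissue-restricted subunits *Cox4i2* and *Cox7a1*, both at 0.49, lay below every assembly factor.

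**Figure D1:**
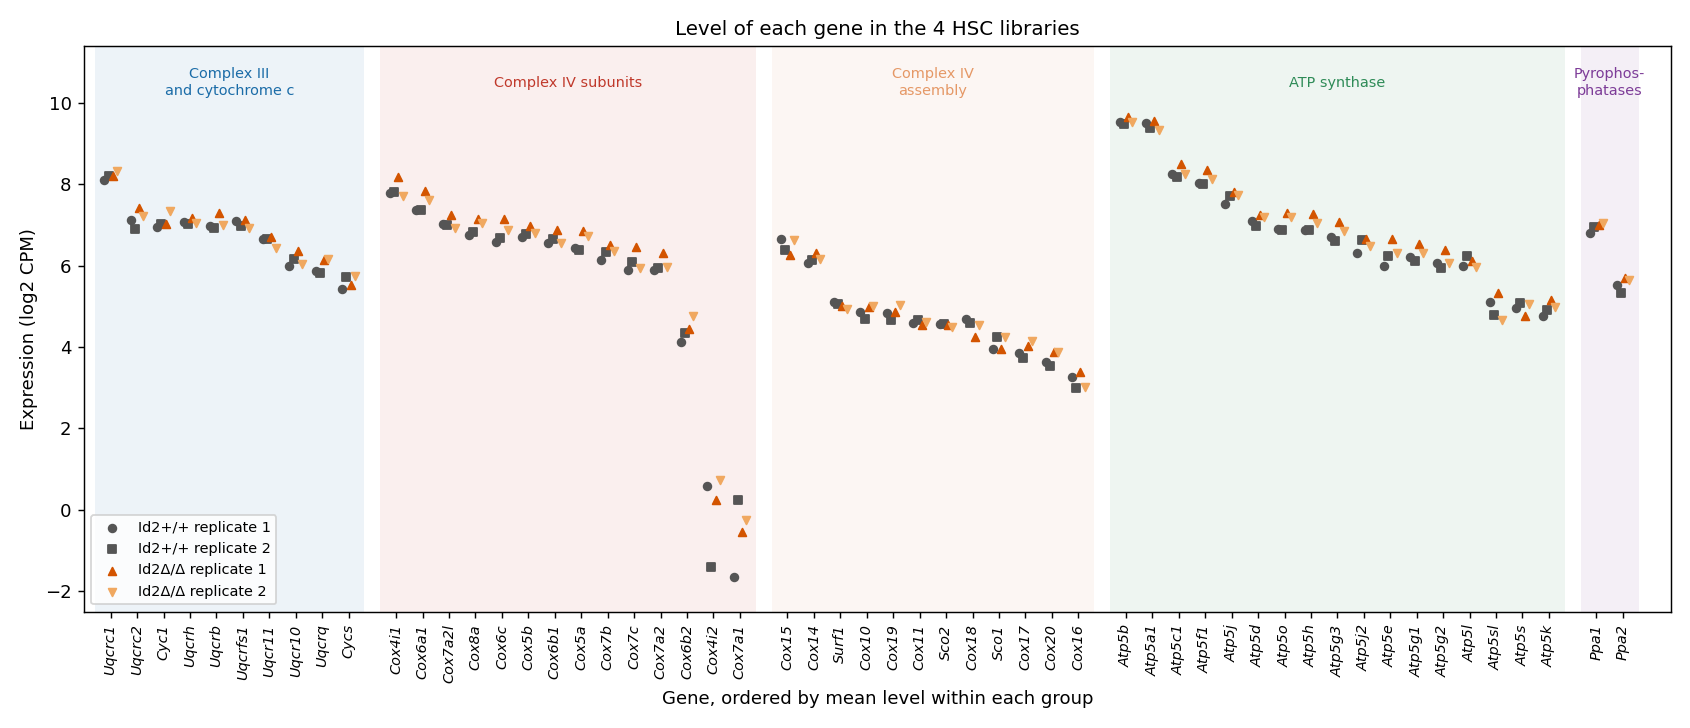
Level of each of the 55 genes (y axis, log2 CPM) in the 4 libraries, by group and in order of mean level (x axis), with grey symbols for Id2+/+ and orange symbols for Id2Δ/Δ. The symbols of a gene lie close together next to the range between genes, from 9.66 for Atp5b down to -1.66 for Cox7a1.

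Of the 55 genes, 54 had a mean of at least 1 CPM and were tested. None changed between genotypes after adjustment: limma called 0 of them at an adjusted p-value under 0.05 (Benjamini-Hochberg over all genes), as it called 0 (0.0%) of the 15895 genes tested, with 273 higher and 469 lower at an unadjusted p-value under 0.05. *Cox7a1*, the muscle isoform of subunit 7a, was the gene below the filter, with 5 and 19 reads in *Id2*+/+ and 11 and 14 reads in *Id2*Δ/Δ replicates 1 and 2. At an unadjusted p-value under 0.05, 5 of the 54 genes (9.26%) were higher in *Id2*Δ/Δ HSCs, where 1.72% of all tested genes were. These were *Atp5o*, *Cox5a*, *Cox6a1*, *Cox6c* and *Cox8a*, and 0 of the 54 were lower, where 2.95% of all were. The log2 fold change was above 0 in 44 genes and below 0 in 10, with a median of 0.17 (1.12-fold) against 0.01 over all genes tested. Without any overlap of the genotypes, the *Id2*Δ/Δ libraries were the higher ones in 29 genes (53.7%), where this held for 19.0% of all tested genes, and the lower ones in 3 (5.56%), where it held for 15.8%. For a single gene, the smallest two-sided p that an exact permutation test can reach with 2 libraries on each side is 0.333.

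The summed level of the 55 genes was 6091 and 6064 CPM in *Id2*+/+ and 7101 and 6385 CPM in *Id2*Δ/Δ replicates 1 and 2. The first *Id2*Δ/Δ library thus stood further from the controls than the second. It lay above both *Id2*+/+ libraries in 44 of the 54 genes, where 40.1% of all tested genes did, and the second did so in 31, where 37.5% of all did. The first *Id2*Δ/Δ library was the highest of the 4 in 35 genes (64.8%). It was so in 33.2% of all tested genes and in 57.4% of coding genes of at most 1348 bases. The second *Id2*Δ/Δ library was the highest in 11 of the 54 genes, and in 4048 of all 15895 tested.

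**Figure D2:**
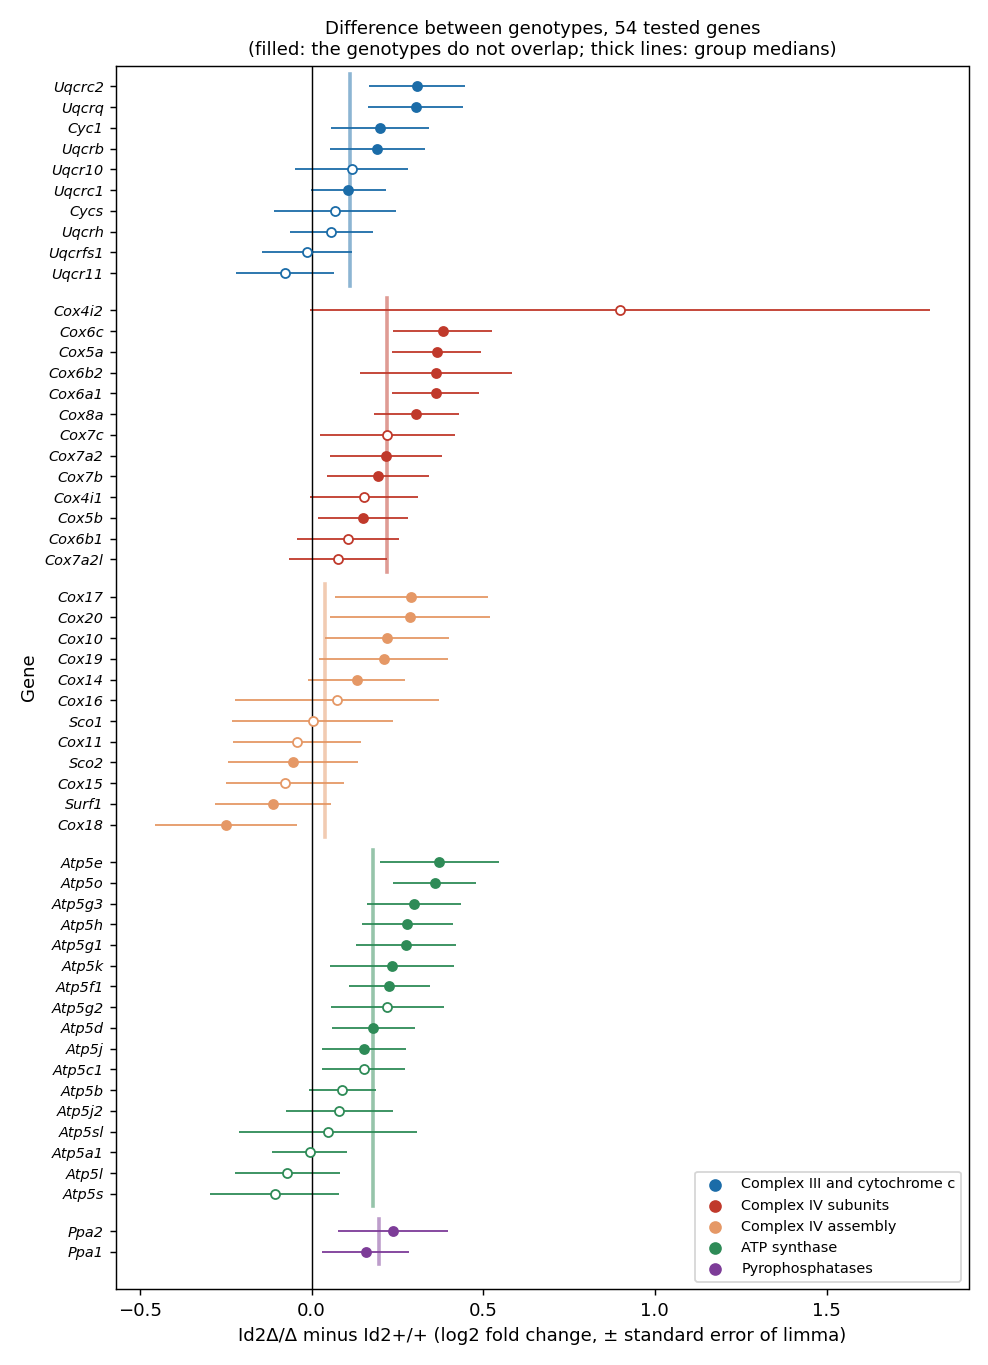
Log2 fold change of each of the 54 tested genes (x axis, Id2Δ/Δ minus Id2+/+, bars are the standard error from limma), grouped from complex III at the top to the pyrophosphatases at the bottom; filled points are genes whose genotypes did not overlap and thick lines are group medians. The medians are 0.11, 0.22, 0.04, 0.18 and 0.20 from top to bottom, and Cox4i2 has the widest bar (0.90).

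In complex III and cytochrome c, all 10 genes were tested, 8 had a log2 fold change above 0, and the median was 0.11 (range -0.08 to 0.31). Both *Id2*Δ/Δ libraries exceeded the controls in 5 genes, *Cyc1*, *Uqcrb*, *Uqcrc1*, *Uqcrc2* and *Uqcrq*, and in 0 genes were both lower. These are 50% and 0%, where all tested genes had 19.0% and 15.8%. An unadjusted p-value under 0.05 was reached by 0 genes in either direction. The summed level was 1202 and 1203 CPM in *Id2*+/+ and 1339 and 1291 CPM in *Id2*Δ/Δ replicates 1 and 2. Without *Cycs* the median over the 9 genes of the complex itself was 0.12. The sign of *Cycs*, *Uqcr10*, *Uqcr11*, *Uqcrfs1* and *Uqcrh* turned when one of the libraries was left out.

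*Cyc1* (ENSMUSG00000022551.7, chromosome 15 of GRCm38 from 76343523 to 76346260) encodes cytochrome c1, the subunit that hands electrons to cytochrome c, and is one of the genes the study names. The study chose *Cyc1*, *Cox10* and *Ppa2* from its RNA-Seq of HSCs of these genotypes, which may be these same libraries, so their direction is not taken as independent evidence. Its level was 6.95 and 7.02 log2 CPM in *Id2*+/+ and 7.03 and 7.34 in *Id2*Δ/Δ replicates 1 and 2, a log2 fold change of 0.20 (standard error, SE, 0.14, adjusted p = 0.910, limma with Benjamini-Hochberg adjustment). The genotypes did not overlap, but the first *Id2*Δ/Δ library was only just above the controls. Without *Id2*Δ/Δ replicate 2 the log2 fold change of *Cyc1* was 0.04.

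*Uqcrc2* and *Uqcrq* had the smallest p-values of the complex. *Uqcrc2* (chromosome 7, 120635176 to 120659524), a core protein facing the matrix, was at 7.12 and 6.91 log2 CPM in *Id2*+/+ and 7.43 and 7.21 in *Id2*Δ/Δ, a log2 fold change of 0.31 (SE 0.14, unadjusted p = 0.0608, adjusted p = 0.910, limma). *Uqcrq* (chromosome 11, 53427922 to 53430831), a small subunit beside cytochrome b, was at 5.86 and 5.83 in *Id2*+/+ and 6.14 and 6.16 in *Id2*Δ/Δ, a log2 fold change of 0.30 (SE 0.14, adjusted p = 0.910, limma). In *Uqcrq* the replicates of each genotype were close together, and leaving out any library kept its log2 fold change between 0.29 and 0.32. The other core protein, *Uqcrc1*, had a log2 fold change of 0.11, also without overlap.

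Of the most abundant small subunits per kilobase, *Uqcrb*, a subunit near the ubiquinone site, was at 6.98 and 6.93 log2 CPM in *Id2*+/+ and 7.29 and 7.0 in *Id2*Δ/Δ, a log2 fold change of 0.19 (SE 0.14). *Uqcrh*, the hinge protein between cytochrome c1 and cytochrome c, was at 7.08 and 7.03 against 7.18 and 7.05, a log2 fold change of 0.06 (SE 0.12) with overlapping genotypes. *Uqcr11* was at 6.65 in both *Id2*+/+ libraries and at 6.71 and 6.44 in *Id2*Δ/Δ, so that the *Id2*Δ/Δ libraries lay on either side of the controls. Its log2 fold change of -0.08 (SE 0.14) was the lowest of the group. The Rieske iron-sulfur protein gene *Uqcrfs1*, at -0.01, and *Cycs*, the somatic cytochrome c, at 0.07, also had overlapping genotypes.

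In the subunits of complex IV, all 13 tested genes had a log2 fold change above 0 (median 0.22, range 0.08 to 0.90). Of the 13, 4 (30.8%) were higher at an unadjusted p-value under 0.05, where 1.72% of all tested genes were. In 8 (61.5%) both *Id2*Δ/Δ libraries exceeded the controls, where 19.0% of all tested genes did. Among tested coding genes of at most 1348 bases, the median length of the set, 34.9% did. The summed level was 1210 and 1261 CPM in *Id2*+/+ against 1593 and 1325 CPM in *Id2*Δ/Δ replicates 1 and 2, a ratio of genotypes of 1.18. The first *Id2*Δ/Δ library was the highest of the 4 in 11 of the 13 genes (84.6%), where it was in 33.2% of all tested genes. Its median distance above each gene's mean was 0.21, and that of the second was 0.01. The group median was 0.11 when *Id2*Δ/Δ replicate 1 was left out and 0.38 when *Id2*Δ/Δ replicate 2 was.

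*Cox6a1* (ENSMUSG00000041697.8, chromosome 5, 115345642 to 115348981), the liver-type isoform of subunit 6a that most tissues use, was at 7.36 and 7.37 log2 CPM in *Id2*+/+ and 7.85 and 7.61 in *Id2*Δ/Δ. The log2 fold change was 0.36 (SE 0.13, unadjusted p = 0.0226, adjusted p = 0.910, limma). Both *Id2*Δ/Δ libraries were above the controls, and the log2 fold change was 0.24 without *Id2*Δ/Δ replicate 1.

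*Cox5a* (ENSMUSG00000000088.7, chromosome 9, 57521274 to 57532426), a subunit on the matrix side, was at 6.44 and 6.39 log2 CPM in *Id2*+/+ and 6.84 and 6.72 in *Id2*Δ/Δ. Its log2 fold change of 0.36 (SE 0.13, unadjusted p = 0.0242, adjusted p = 0.910, limma) kept between 0.31 and 0.42 whichever library was left out. *Cox8a* (ENSMUSG00000035885.4, chromosome 19, 7215153 to 7217616), the only subunit 8 gene in the set, was at 6.75 and 6.82 in *Id2*+/+ and 7.14 and 7.04 in *Id2*Δ/Δ, a log2 fold change of 0.31 (SE 0.12, unadjusted p = 0.0401, adjusted p = 0.910, limma). In both genes the *Id2*Δ/Δ libraries were close to each other and clear of the controls. *Cox6c* had the highest fold change of the well-covered subunits, 0.38 (SE 0.14), with levels of 6.58 and 6.69 in *Id2*+/+ and 7.15 and 6.87 in *Id2*Δ/Δ.

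Isoform pairs of complex IV differed far more in level than between genotypes. *Cox4i1* was at 7.78 and 7.81 log2 CPM in *Id2*+/+ and 8.17 and 7.72 in *Id2*Δ/Δ, so that one *Id2*Δ/Δ library was above and the other below both controls. The log2 fold change was 0.15 (SE 0.16), and -0.07 without *Id2*Δ/Δ replicate 1. *Cox4i2*, the isoform of subunit 4 that is known as a HIF-1 target in low oxygen, had 22 and 6 reads in *Id2*+/+ and 21 and 28 reads in *Id2*Δ/Δ, at 0.60, -1.40, 0.25 and 0.73 log2 CPM. Its *Id2*+/+ libraries lay further apart than the genotypes, the log2 fold change was 0.90 (SE 0.90, adjusted p = 0.916, limma), and without *Id2*+/+ replicate 2 it was -0.10. Per kilobase *Cox4i1* was 217-fold above *Cox4i2*.

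Subunit 7a had 3 genes in the table. *Cox7a2*, the isoform most tissues use, was at 5.90 and 5.95 log2 CPM in *Id2*+/+ and 6.31 and 5.97 in *Id2*Δ/Δ, a log2 fold change of 0.22 (SE 0.16), with the second *Id2*Δ/Δ library barely above the controls. *Cox7a2l*, a relative that links complexes III and IV into supercomplexes, was at 7.02 and 6.99 in *Id2*+/+ and 7.24 and 6.93 in *Id2*Δ/Δ, and its log2 fold change of 0.08 (SE 0.14) turned to -0.08 without *Id2*Δ/Δ replicate 1. *Cox7a1* was at -1.66 and 0.25 in *Id2*+/+ and -0.55 and -0.24 in *Id2*Δ/Δ, and was 70.5-fold below *Cox7a2* per kilobase. *Cox6b2*, known as a testis isoform, was present in these HSCs at 4.12 and 4.35 in *Id2*+/+ and 4.43 and 4.77 in *Id2*Δ/Δ, 4.48-fold below *Cox6b1* per kilobase. *Cox6b2* had a log2 fold change of 0.36 (SE 0.22), against 0.11 for *Cox6b1* and 0.15 to 0.22 for *Cox5b*, *Cox7b* and *Cox7c*. Leaving out a library also turned the sign of *Cox6b1* and *Cox7c*.

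Of the 12 genes for building complex IV, 7 had a log2 fold change above 0 and 5 below, with a median of 0.04 (range -0.25 to 0.29). Both *Id2*Δ/Δ libraries exceeded the controls in 5 genes (41.7%, where 19.0% of all tested genes did) and were lower than the controls in 3 (25%, where 15.8% did). The summed level was 385 and 364 CPM in *Id2*+/+ and 372 and 396 CPM in *Id2*Δ/Δ replicates 1 and 2, so the genotypes overlapped, and the first *Id2*Δ/Δ library was above the second in only 4 of the 12 genes. An unadjusted p-value under 0.05 was reached by 0 of them. The sign of *Cox15*, *Cox16* and *Sco1* depended on which library was left out. The difference between assembly genes and subunits was not tested.

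*Cox10* (ENSMUSG00000042148.8, chromosome 11, 63962627 to 64079468), the farnesyltransferase of heme A synthesis and a gene the study names, was at 4.87 and 4.69 log2 CPM in *Id2*+/+ and 4.97 and 5.02 in *Id2*Δ/Δ. The log2 fold change was 0.22 (SE 0.18, unadjusted p = 0.261, adjusted p = 0.910, limma), with no overlap, and from 0.13 to 0.31 in the fits without 1 library. *Cox15*, which acts in the step after *Cox10*, had overlapping genotypes and a log2 fold change of -0.08.

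Of the copper-delivery genes, *Cox17* (chromosome 16, 38346991 to 38352763), the copper chaperone, was at 3.85 and 3.74 log2 CPM in *Id2*+/+ and 4.04 and 4.14 in *Id2*Δ/Δ, a log2 fold change of 0.29 (SE 0.22). *Cox11*, which brings copper to subunit 1, was at 4.60 and 4.66 against 4.55 and 4.63, a log2 fold change of -0.04 (SE 0.19) with overlap. *Sco1* and *Sco2*, which act on the copper site of subunit 2, had log2 fold changes of 0.00 and -0.05, and *Cox19* of 0.21. Copper-delivery genes therefore lay on both sides of 0, and only *Cox17* and *Cox19* had both *Id2*Δ/Δ values above the controls.

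*Cox20* (chromosome 1, 178319130 to 178322693), a chaperone of newly made subunit 2, was at 3.63 and 3.54 log2 CPM in *Id2*+/+ and 3.87 in both *Id2*Δ/Δ libraries, a log2 fold change of 0.29 (SE 0.23). *Cox18*, which inserts the same subunit into the membrane, had the lowest value of the whole set, -0.25 (SE 0.21), with 4.68 and 4.59 in *Id2*+/+ and 4.24 and 4.53 in *Id2*Δ/Δ. For *Cox18*, *Sco2* and *Surf1* both *Id2*Δ/Δ libraries were below both controls. *Surf1*, an assembly factor whose loss causes Leigh syndrome, was at 5.11 and 5.06 in *Id2*+/+ and 5.02 and 4.93 in *Id2*Δ/Δ, a log2 fold change of -0.11 (SE 0.17). *Cox14*, which helps subunit 1 to mature, was at 6.07 and 6.14 against 6.31 and 6.16, a log2 fold change of 0.13 (SE 0.14) in which the second *Id2*Δ/Δ library was only just above the controls.

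Among the 17 ATP synthase genes, 14 had a log2 fold change above 0, with a median of 0.18 (range -0.11 to 0.37). Both *Id2*Δ/Δ libraries exceeded the controls in 9 (52.9%) and were lower in 0, where all tested genes had 19.0% and 15.8%. At an unadjusted p-value under 0.05, 1 gene (5.88%), *Atp5o*, was higher, where 1.72% of all tested genes were. The summed level was 3136 and 3072 CPM in *Id2*+/+ and 3617 and 3191 CPM in *Id2*Δ/Δ replicates 1 and 2. The first *Id2*Δ/Δ library was above the second in 16 of the 17 genes and was the highest of the 4 in 15. Over all tested genes these shares were 50.8% and 33.2%. *Atp5s* and *Atp5sl*, which are named like subunits but are not part of the enzyme, had log2 fold changes of -0.11 and 0.05, and without them the median over 15 subunits was 0.22. The sign of *Atp5a1*, *Atp5j2*, *Atp5l*, *Atp5s* and *Atp5sl* depended on which library was left out.

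The 5 subunits of the F1 head had a median log2 fold change of 0.15, with 2 (40%) above the controls without overlap (*Atp5d* and *Atp5e*). The 10 subunits of Fo and the side stalk had 0.23, with 7 (70%) above without overlap, where 19.0% of all tested genes were. Their longest transcripts were shorter, with a median of 929.5 bases against 1735 for F1. After correction for transcript length the medians were 0.14 for F1 and 0.17 for Fo and the side stalk. The difference between these 2 parts was not tested. *Atp5b* was at 9.53 and 9.48 log2 CPM in *Id2*+/+ and 9.66 and 9.53 in *Id2*Δ/Δ, a log2 fold change of 0.09 (SE 0.10). *Atp5a1* was at 9.51 and 9.39 against 9.54 and 9.34, a log2 fold change of -0.01 (SE 0.11, adjusted p = 0.996, limma with Benjamini-Hochberg adjustment). These were the most abundant transcripts of the set, both had overlapping genotypes, and their standard errors were among its smallest. *Atp5e*, the epsilon subunit of the central stalk, had the highest log2 fold change of the group, 0.37 (SE 0.17), with 6.0 and 6.23 in *Id2*+/+ and 6.67 and 6.30 in *Id2*Δ/Δ, the first *Id2*Δ/Δ library standing well above the rest.

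*Atp5o* (ENSMUSG00000022956.10, chromosome 16, 91925214 to 91931687) encodes OSCP, the protein that joins the side stalk to the F1 head. It was at 6.89 in both *Id2*+/+ libraries and at 7.31 and 7.19 log2 CPM in *Id2*Δ/Δ, and the log2 fold change of 0.36 (SE 0.12, unadjusted p = 0.0191, adjusted p = 0.910, limma) had the smallest unadjusted p-value of the whole set. Both *Id2*Δ/Δ libraries were clear of the controls, and leaving out any library kept the value between 0.30 and 0.42. The gene was picked by its p-value in these same libraries, so neither is separate support. *Atp5j*, the stalk subunit F6, was at 7.51 and 7.72 in *Id2*+/+ and 7.81 and 7.73 in *Id2*Δ/Δ, a log2 fold change of 0.15 (SE 0.12) with the second *Id2*Δ/Δ library close to the higher control.

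The proton-carrying c ring is encoded by 3 genes that give the same mature protein. *Atp5g1* was at 6.21 and 6.10 log2 CPM in *Id2*+/+ and 6.54 and 6.32 in *Id2*Δ/Δ, a log2 fold change of 0.28 (SE 0.15). *Atp5g2* was at 6.06 and 5.95 against 6.39 and 6.06, a log2 fold change of 0.22 (SE 0.16). *Atp5g3* (chromosome 2, 73908447 to 73911326) was at 6.71 and 6.62 against 7.08 and 6.85, a log2 fold change of 0.30 (SE 0.14, adjusted p = 0.910, limma). The 3 genes had values of similar size, with no overlap except in *Atp5g2*, whose second *Id2*Δ/Δ library was level with the higher control. Per kilobase *Atp5g3* was at 7.03, *Atp5g2* at 6.52 and *Atp5g1* at 4.06, with longest transcripts of 862, 753 and 4715 bases. Before division by length, *Atp5g1* was above *Atp5g2* in each library.

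The pyrophosphatases split inorganic pyrophosphate, *Ppa1* in the cytosol and *Ppa2* in mitochondria. *Ppa2* (ENSMUSG00000028013.16, chromosome 3, 133310110 to 133378235), which the study names, was at 5.53 and 5.34 log2 CPM in *Id2*+/+ and 5.70 and 5.64 in *Id2*Δ/Δ, a log2 fold change of 0.24 (SE 0.16, unadjusted p = 0.179, adjusted p = 0.910, limma). *Ppa1* (chromosome 10, 61648552 to 61674168) was at 6.80 and 6.95 against 7.0 and 7.06, a log2 fold change of 0.16 (SE 0.13). Neither gene overlapped between genotypes, and here the *Id2*Δ/Δ libraries were close to each other. *Ppa1* was 9.40-fold above *Ppa2* per kilobase, a ratio that rests in part on longest transcripts of 1432 and 5100 bases.

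Setting the libraries of each replicate number against each other, which share no sample, gave different sizes for some groups. Both the *Id2*Δ/Δ and the *Id2*+/+ library change between these comparisons. For subunits of complex IV the median difference was 0.39 between the first replicates and 0.02 between the second, and for the ATP synthase 0.32 and 0.08. For complex III and cytochrome c it was 0.10 and 0.06, for complex IV assembly 0.02 and 0.03, and for the pyrophosphatases 0.19 and 0.21. The difference was above 0 in both comparisons for 35 of the 54 genes and below 0 in both for 5.

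**Figure D3:**
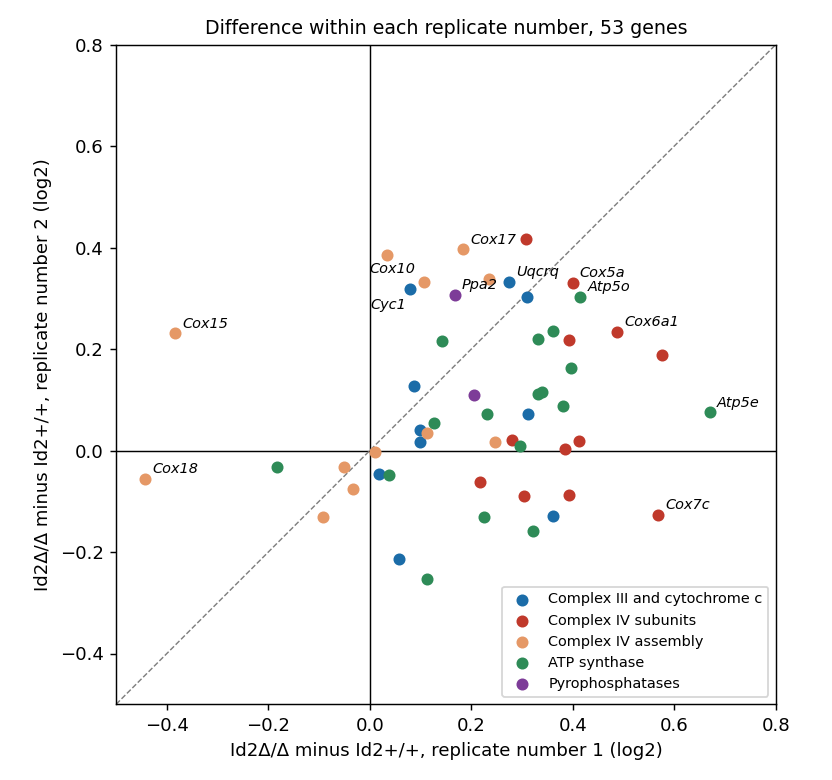
Difference between genotypes (log2) in the libraries numbered 1 (x axis) and in those numbered 2 (y axis) for 53 genes, colored by group, without Cox4i2 (-0.34 and 2.14). Most subunits of complex IV and the ATP synthase lie below the dashed line of equal difference, while Cyc1, Cox10, Cox17 and Ppa2 lie above it.

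**Figure D4:**
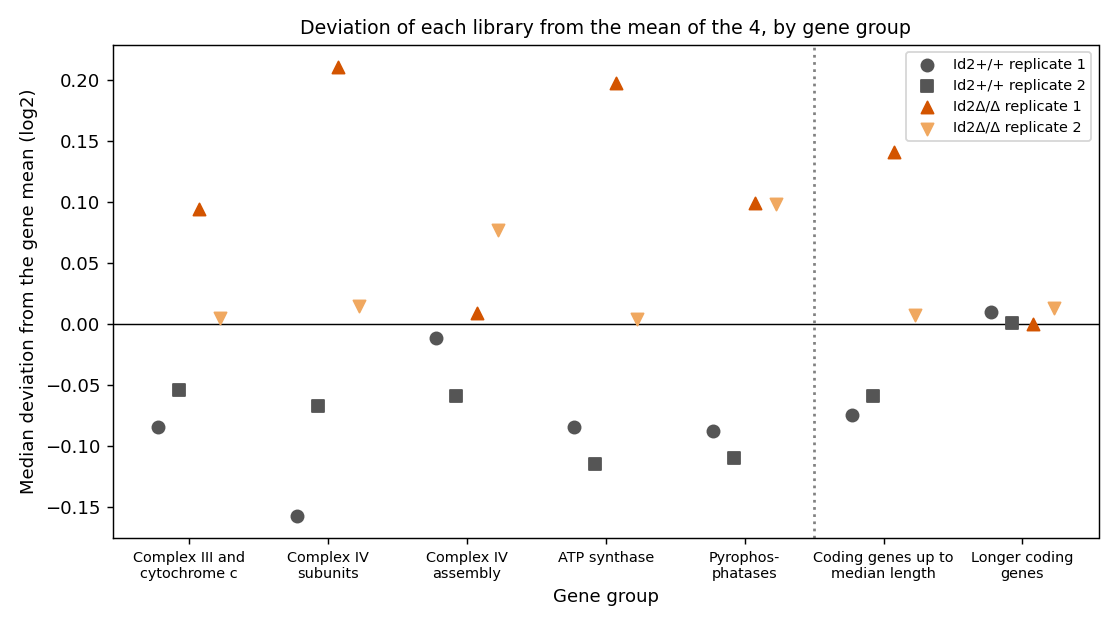
Median deviation of each library from the gene means (y axis, log2) for each group of genes and, right of the dotted line, for all tested protein-coding genes, those of the set included, split at the median transcript length of the set, 1348 bases. Id2Δ/Δ replicate 1 is highest for subunits of complex IV (0.21) and the ATP synthase (0.20), and it is also highest for the short coding genes (0.14).

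Most of these transcripts are short, and short transcripts as a class also had higher values. Over the 1074 tested protein-coding genes no longer than 1348 bases, the median length of the set, the median log2 fold change was 0.14 and both *Id2*Δ/Δ libraries exceeded the controls in 34.9%, against 0.00 and 17.4% over the 11292 longer ones. Their per-library medians followed the same order as those of the complex IV subunits, -0.07 and -0.06 in *Id2*+/+ and 0.14 and 0.01 in *Id2*Δ/Δ replicates 1 and 2. Among genes of at most 1000 bases, the 21 genes of the set had a median log2 fold change of 0.22 and 61.9% without overlap above the controls, and all 512 coding genes had 0.16 and 37.5%. Above that and up to 2000 bases the values were 0.15 and 47.1% for 17 genes of the set against 0.10 and 28.5% for 1981 coding genes. Over 2000 bases the median was 0.09 with 8 of 16 genes of the set above the controls, against -0.01 and 16.1% for 9873 coding genes. All these lengths are of the longest annotated transcript, which need not be the one expressed. *Atp5l*, *Atp5g1* and *Cox6c* thus count as 6310, 4715 and 3038 bases, and the 16 genes may not all have long transcripts in these cells. The length correction used the same lengths. After each library was corrected for transcript length, the medians were 0.09 for complex III and cytochrome c, 0.13 for subunits of complex IV, 0.03 for complex IV assembly, 0.14 for the ATP synthase and 0.21 for the pyrophosphatases, where all tested genes had 0.03. With the same correction, all tested protein-coding genes had 0.04 and the 1074 short ones still had 0.07. The median of complex III and cytochrome c was thus close to that of short coding genes, and that of complex IV assembly was below it. The part of transcript length in the differences was not tested further.

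**Figure D5:**
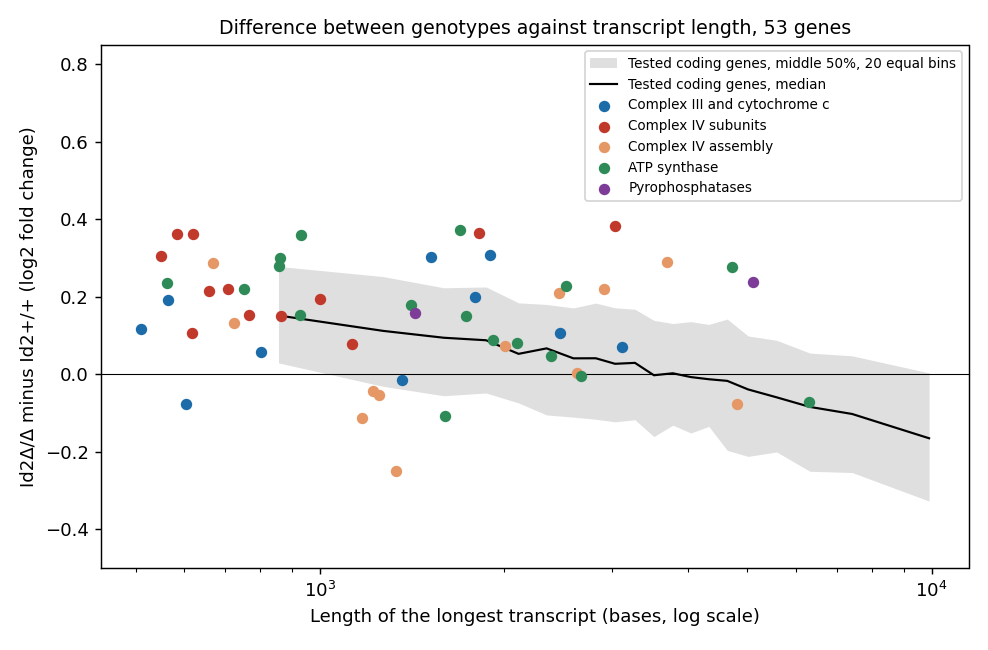
Log2 fold change between genotypes (y axis) against the length of the longest transcript (x axis, bases, log scale) for 53 genes, colored by group and without Cox4i2 (0.90), over the median (line) and middle 50% (grey band) of all tested protein-coding genes in 20 bins of equal size. The line falls with length, and 20 of the 21 genes of at most 1000 bases lie above 0.

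The other genes of these complexes were read from lists. Of the 6 subunits that the mitochondrial genome encodes for them, *mt-Co1* was at 12.01 in every library and *mt-Cytb* at 11.73 to 11.85, at the top of the range, where the shared normalization ties the libraries together. *mt-Co3* was at 4.88 and 5.05 log2 CPM in *Id2*+/+ and 5.40 and 5.26 in *Id2*Δ/Δ, a log2 fold change of 0.36 (SE 0.17), and *mt-Atp6* had 0.37, both without overlap. *mt-Co2* overlapped at 0.24, and *mt-Atp8* was below the filter. Reads of mitochondrial genes can be shared with nuclear copies, and how such reads were counted is not given in the sources used here.

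Of the 6 assembly factors of complex III, 4 had a log2 fold change above 0 and the median was 0.14. *Uqcc1*, needed to make cytochrome b, was lower at an unadjusted p-value under 0.05, with 6.09 and 6.15 log2 CPM in *Id2*+/+ and 5.51 and 5.85 in *Id2*Δ/Δ (log2 fold change -0.44, SE 0.17, adjusted p = 0.910, limma). Over 14 further genes of complex IV and its assembly the median was 0.06. Without overlap, 3 were above (21.4%) and 2 below (14.3%), near the 19.0% and 15.8% of all tested genes. *Taco1*, which activates translation of subunit 1, had the highest value there, 0.64 (SE 0.30), with 2.54 and 2.61 in *Id2*+/+ and 3.10 and 3.33 in *Id2*Δ/Δ. The 5 genes for assembly and inhibition of the ATP synthase had a median of 0.07, and all overlapped between genotypes.

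Complex I, which shares the inner membrane with these complexes, had 36 genes by symbol. Of these, 34 had a log2 fold change above 0, and the median was 0.16. Without overlap, 44.4% were above the controls, where 19.0% of all tested genes and 34.9% of coding genes of at most 1348 bases were. The median was 0.095 after the length correction, 0.29 between the first replicates and 0.03 between the second. The 36 were taken by symbol alone and include *Ndufa4*, which is also counted among the further genes of complex IV above. Complex II had a median of 0.12 over 4 genes. Regulators of respiratory genes, 12 in all, had a median of -0.04. The coactivator *Ppargc1a* was at 2.80 and 2.82 log2 CPM in *Id2*+/+ and 2.17 and 2.11 in *Id2*Δ/Δ (log2 fold change -0.67, SE 0.33). *Tfam*, which packages mitochondrial DNA, was at 5.97 and 5.98 against 6.42 and 6.19 (0.33, SE 0.15), and both genes had no overlap and an adjusted p-value of 0.910 from limma. *Nrf1* and *Gabpa*, whose letters were searched in the promoters, had log2 fold changes of -0.14 and -0.05. Of the respiratory genes linked to HIF-1, 5 of 6 had a value, with a median of 0.13 that was -0.14 between the first replicates. *Lonp1*, the protease known to remove COX4I1 protein in low oxygen, had 0.13 (SE 0.12), *Higd1a* 0.27, *Pdk1* -0.08 and *Bnip3* -0.10, besides *Cox4i2*.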

How the data were processed

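RNA of pooled HSCs was sequenced in 4 libraries, 2 of each genotype, grouped by the labels. The authors deposited 1 table of log2 CPM values for 19354 genes, of which 0 sample columns were left unused. The unit was read from the values: taken back from log2, the columns have equal totals, and 88.4% of the values at a given rank lie within 0.1 of each other, as after quantile normalization. The submitters' processing notes name CASAVA 1.8.4, Trimmomatic 0.30, TopHat2 2.0.8, RSEM and STAR, and the builds mm9 and NCBIM37, with no role. How reads shared with near-identical copies (such as pseudogenes of *Uqcrh* and *Atp5l*) were counted, and whether strand was used, is not given in the sources used here, so such genes, overlapping genes and antisense genes are uncertain.

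The deposited values got no pseudocount. The 15895 genes averaging 1 CPM or more entered a two-sided limma 3.58.1 fit in R 4.3.3, with genotype as its one term, a trend in the variance (eBayes), Benjamini-Hochberg adjustment and calls under 0.05. All tables were made in Python 3.11.15 with pandas 2.3.3 and numpy 2.4.6. The fit was tested on simulated data. Read counts and approximate depth were recovered from the order of the distinct values below 32 CPM, where 62.1% of values lie. A count of 0 allows up to 3 reads, or 0.159 to 0.211 CPM, and this covers counting error only. Coordinates and lengths (longest transcript) are GENCODE M21 on GRCm38, matched by identifier for 99.7% of genes, 82.0% with the same version. The length correction took a natural spline with 5 degrees of freedom off each library.

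Per-library values were given for the genes the study names (*Cox10*, *Cyc1*, *Ppa2*), the 3 highest per kilobase and the 2 with the smallest p-values of each group, isoform families and genes below the filter. For genes picked by a small p-value, separated genotypes and small changes without a library follow in part from that choice. *Cox6b1*, *Cox6b2*, *Cox6c*, *Cox18*, *Atp5e* and the genes of other lists were added after their values were seen. The members and lists were chosen with earlier results of these data known. Alternatives changed the replicate block, the length correction, the libraries used, the filter, the scaling, the variance trend and the pseudocount. Same-numbered libraries were checked for pairing by their deviations from the group means. The values of some marker genes are not reported here.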

Additional observations from a re-analysis of the deposited data

How the results depend on the processing

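Of the 55 genes, 0 were called under any alternative. The medians of complex III and cytochrome c, subunits of complex IV, complex IV assembly, the ATP synthase and the pyrophosphatases stayed above 0 under all of them. That of complex IV assembly was close to 0: 0.04 in the main fit, 0.0033 with a filter at 10 CPM, and 0.05 to 0.08 without 1 library. A replicate block called 1 gene of all tested, and the replicate block with the length correction also 1, neither of them in the set. Whether the numbers pair the libraries is not known. Across tested genes the deviations of same-numbered libraries from the group means were correlated at 0.0592, and at 0.144 above 32 CPM, but 2 pairs cannot decide it. Replicate 1 was above replicate 2 in all 8 tested neutrophil markers in both genotypes. Among the 6 tested erythroid markers this held for 5 in *Id2*+/+ and 2 in *Id2*Δ/Δ. Genes of the set higher at an unadjusted p-value under 0.05 numbered 5, 3 after the length correction with or without the replicate block, and 0 without the intensity trend. Leaving out a library gave 0 to 17 of them: 17 when *Id2*Δ/Δ replicate 2 was left out, 3 when replicate 1 of that genotype was, and 0 without either *Id2*+/+ library. In such fits the lone library is assumed to vary like the other genotype's.

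Replicate number 1 alone gave medians of 0.32 for the ATP synthase and 0.39 for subunits of complex IV, and number 2 alone gave 0.0751 and 0.0202, with 0.0553 for complex III and cytochrome c. Leaving out a library in turn gave 0.11 to 0.31 for the ATP synthase, 0.0735 to 0.19 for complex III and cytochrome c and 0.11 to 0.38 for subunits of complex IV. The pyrophosphatase median of 0.20 became 0.21 with the length correction, with or without the replicate block, and 0.18 with median-ratio rescaling or a pseudocount of 5. *Atp5a1* turned to 0.015 and *Uqcrh* to -0.023 with the length correction, with or without the replicate block. Fits without a library turned the sign of 18 of the 54 genes. These were *Atp5a1* (-0.11 to 0.10), *Cox4i1* (-0.0715 to 0.38), *Cox4i2* (-0.10 to 1.90), *Cox7a2l* (-0.0791 to 0.23), *Uqcr11* (-0.21 to 0.0561) and *Uqcrh* (-0.00671 to 0.12), with *Cycs*, *Uqcr10*, *Uqcrfs1*, *Cox6b1*, *Cox7c*, *Cox15*, *Cox16*, *Sco1*, *Atp5j2*, *Atp5l*, *Atp5s* and *Atp5sl*. The order of the group medians also moved: the pyrophosphatases, not the subunits of complex IV, were highest with the length correction, for replicate number 2 alone and without *Id2*Δ/Δ replicate 1, and the ATP synthase was highest without *Id2*+/+ replicate 1. Genes with the *Id2*Δ/Δ values above both controls numbered 29 with both libraries, 44 for replicate 1 alone and 31 for replicate 2 alone, and those below numbered 3, 6 and 10; this alternative was chosen after seeing the data, and using fewer libraries by itself leaves more genes without overlap. For the other shifts the cause was not tested. Only 2 libraries a genotype limit the precision, and no gene of the set could be placed beyond that spread after adjustment.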
